A study of Mus musculus with 2 samples.

Results

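Genes of the cell division machinery were examined for Ring1b intervals in incisor pulp cells. The list held 49 genes, chosen by name as cyclins, cyclin-dependent kinases (CDKs), Cdc25 phosphatases, E2F factors, pocket proteins, replication licensing factors, proliferation markers, and mitotic and checkpoint genes. A gene was called bound when its name stood in the deposited table of genes with a Ring1b interval, which lists intervals up to 10 kb from a gene. By that rule 8 of the 49 genes were bound, out of 3993 genes in the whole table.

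Ring1b is the catalytic subunit of Polycomb repressive complex 1 (PRC1), which attaches ubiquitin to histone H2A. Its positions on chromatin were determined by ChIP-seq, the sequencing of immunoprecipitated chromatin, in incisor pulp cells of CD1 mice at postnatal day 5. The labels state no genetic change in the animals, which had received 1 dose of 3.3 µg per g of 5-ethynyl-2'-deoxyuridine (EdU), a thymidine analogue built into newly made DNA, 24 h before collection. EdU-positive cells were sorted for the ChIP. Besides this 1 ChIP sample there is 1 sample of input DNA from the same kind of tissue and treatment, of which no values were used here. The ChIP tables hold 2 sets of intervals, which the file headers name replicate 1 (465 intervals) and replicate 2 (3938 intervals). Because the labels list a single ChIP sample, the sets are called run 1 and run 2 below and counted as 1 sample, so no SD, test or p-value is given. If they are separate replicates, a difference between the runs is a difference between replicates. The peak height, a whole number given by the authors for each interval, has no stated scaling, and the sequencing depth is unknown. Expression was not measured, so neither the division state nor the pulp identity of the cells could be checked against marker genes. EdU marks cells that made DNA at some time during labelling, and the labels do not say in which phase the cells were when they were sorted.

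In dividing cells, D-type cyclins with Cdk4 and Cdk6 phosphorylate the pocket proteins of the Rb family, which otherwise hold E2F factors in check. Freed E2F factors switch on genes for cyclin E, licensing factors and other replication proteins, and the Mcm helicase is loaded at origins by Orc1, Cdc6 and Cdt1. Cyclins A and B with Cdk1, the Cdc25 phosphatases, and the Plk1 and Aurora kinases then drive mitosis, which the spindle checkpoint proteins Bub1, Bub1b and Mad2l1 restrain until chromosomes are attached. Polycomb complexes are best known at silent developmental genes and at the Cdkn2a locus, which encodes inhibitors of this machinery.

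The bound genes were Ccnd1, Ccne2, Cdk4, Cdk6, Cdk7, E2f5, Mcm4 and Mcm5. They made up 16.3% of the list, against 15.8% of the 21883 protein-coding genes of the reference table, so the share of the list was near the background. Run 2 supplied the interval at 7 of the 8 genes, 14.3% of the list, against 14.9% of all protein-coding genes. Run 1 supplied the interval at Cdk7 alone, 2.04% of the list, against 1.73% of all protein-coding genes. No member had intervals of both runs, and each of the 8 had exactly 1 interval, as did 80.2% of bound protein-coding genes. The median gene length was 16234 bp for the list and 17170 bp for all protein-coding genes.

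**Figure D1:**
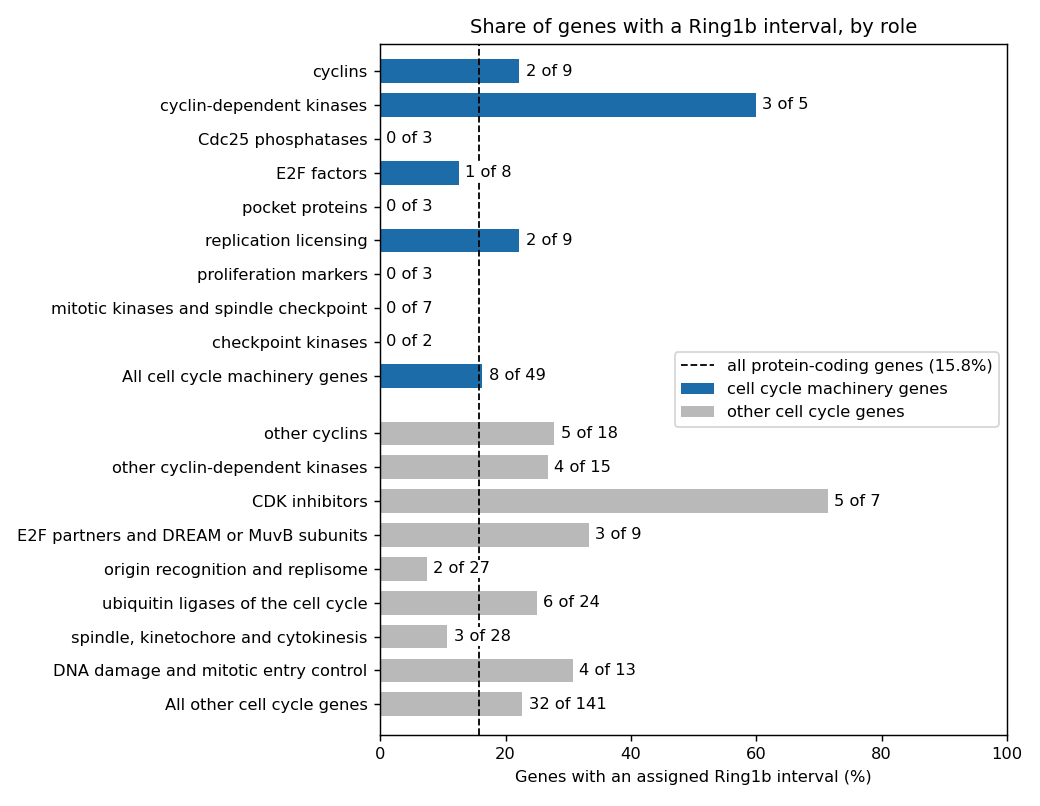
Share of genes with an assigned Ring1b interval (x axis, percent) by role, for the 49 cell cycle machinery genes (blue) and 141 other cell cycle genes (grey), with the count beside each bar and a dashed line at 15.8%, the share of all protein-coding genes. The 8 bound members fall in 4 of the 9 roles, and CDK inhibitors, at 5 of 7, have the longest bar.

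Where these intervals lay can be shown on the promoters themselves. Of the 8 bound genes, 4 had an entry among the RefSeq promoter sequences used here (GRCm38.p6, 250 bases before to 50 after a start), and Mcm5 had the only one of those windows that its own interval overlapped. The Mcm5 interval covered 223 of the 300 bases. Mcm2 and Mcm3, unbound subunits of the same helicase, are shown for comparison. The window of March9 is shown because the interval assigned to Cdk4 ends in it; it was chosen after the values were seen. The sequences run 5′ to 3′ on the strand of the gene, and capitals mark matches on either strand to the GC box (GGGCGG), the box CCAAT, the letters TTTGGCGC, TTTCGCGC and TTTCCCGC (forms of the E2F site), and TTTGAA (the CHR element of many mitotic genes). The windows are chr8:75109259-75109558 on the plus strand for Mcm5, chr6:88898731-88899030 on the minus strand for Mcm2, chr1:20820263-20820562 on the minus strand for Mcm3 and chr10:127060135-127060434 on the minus strand for March9.
Mcm5: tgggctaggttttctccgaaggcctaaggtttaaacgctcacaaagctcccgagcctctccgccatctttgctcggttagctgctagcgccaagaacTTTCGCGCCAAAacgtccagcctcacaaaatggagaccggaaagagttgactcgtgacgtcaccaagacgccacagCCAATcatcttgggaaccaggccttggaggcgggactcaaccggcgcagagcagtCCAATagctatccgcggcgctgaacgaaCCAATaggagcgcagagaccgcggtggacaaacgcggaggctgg
Mcm2: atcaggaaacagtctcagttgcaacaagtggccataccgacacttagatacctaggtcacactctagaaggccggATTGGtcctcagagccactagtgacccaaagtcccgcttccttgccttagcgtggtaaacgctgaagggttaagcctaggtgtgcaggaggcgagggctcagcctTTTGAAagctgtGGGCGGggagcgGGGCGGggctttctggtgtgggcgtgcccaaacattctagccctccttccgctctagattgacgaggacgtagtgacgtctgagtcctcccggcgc
Mcm3: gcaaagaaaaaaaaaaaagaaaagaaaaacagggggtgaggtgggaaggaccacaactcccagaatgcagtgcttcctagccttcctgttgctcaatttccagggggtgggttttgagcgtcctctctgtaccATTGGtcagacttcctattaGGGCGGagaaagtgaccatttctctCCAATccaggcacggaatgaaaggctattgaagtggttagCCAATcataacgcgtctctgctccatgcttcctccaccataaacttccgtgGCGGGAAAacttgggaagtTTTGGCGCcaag
March9: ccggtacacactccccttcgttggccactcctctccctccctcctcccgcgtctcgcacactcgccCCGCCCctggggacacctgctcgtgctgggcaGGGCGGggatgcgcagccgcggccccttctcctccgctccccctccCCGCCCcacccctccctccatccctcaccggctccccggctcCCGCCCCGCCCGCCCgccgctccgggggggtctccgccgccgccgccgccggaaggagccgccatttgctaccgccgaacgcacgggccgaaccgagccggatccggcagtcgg

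Starts in this paragraph are those that define the windows, and that of Mcm5 differs from the deposited gene start used for its summit. In the Mcm5 window, TTTCGCGC began 153 bases before the start and overlapped a reverse-strand match to TTTGGCGC. Both lay inside the Ring1b interval, as did all 3 CCAAT matches. Over all 32851 promoter windows, TTTCGCGC was found in 0.323%, TTTGGCGC in 0.514% and TTTCCCGC in 1.07%. The unbound Mcm3 window also held matches to TTTGGCGC and TTTCCCGC, both after the start, whereas the Mcm2 window matched none of these 3 forms. GC boxes were found in 35.7% of all windows and CCAAT boxes in 37.4%. The Mcm2 window held 2 GC boxes and 1 CCAAT match, and the Mcm3 window 1 GC box and 3 CCAAT matches. TTTGAA, present in 17.9% of all windows, matched in the Mcm2 window only among these 4. The Mcm5 window held 25 CpG dinucleotides, the Mcm2 window 16 and the Mcm3 window 8, against a median of 7 over all windows. These matches describe letters in a window and are not measured sites.

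Among cyclins, 2 of 9 genes were bound, 1 of the 3 D-type and 1 of the 2 E-type cyclins. Ccnd1, which like the other D-type cyclins activates Cdk4 and Cdk6, had a height of 0 in run 1 and 4 in run 2. Its interval, of 692 bp on chromosome 7 at 144942728 to 144943419, lay upstream of the gene with its summit 3323 bases from the start, and it was assigned to no other gene. Ccne2, which with Ccne1 activates Cdk2 at the entry into S phase, also had 0 in run 1 and 4 in run 2. In contrast to that at Ccnd1, its interval covered the start, with the summit 26 bases upstream, on chromosome 4 at 11190873 to 11191578. The reference gene model of Ccne2 begins 921 bases further upstream than the deposited one, which would place the interval inside the gene, 440 bases from that start. None of the 4 A- and B-type cyclins, Ccna1, Ccna2, Ccnb1 and Ccnb2, was bound, nor were Ccnd2, Ccnd3 and Ccne1.

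Among the kinases, Cdk4, Cdk6 and Cdk7 of the 5 genes were bound, but for 1 of the 3 the interval lay less than 2.5 kb from its own start. Cdk4 had the highest value of the list, with 0 in run 1 and 5 in run 2. Its interval, 323 bp wide on chromosome 10 at 127059885 to 127060207, was the narrowest of the list and lay 3396 bases upstream of Cdk4. The interval covered the start of March9, a membrane-bound ubiquitin ligase gene, with the summit 152 bases inside that gene, and was also assigned to Cyp27b1 and Tspan31. It overlapped 73 of the 300 bases of the March9 window printed above, which held 38 CpG dinucleotides and 6 GC boxes, none of them inside the interval.

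Cdk6, the partner of Cdk4 in G1, had 0 in run 1 and 4 in run 2. Its interval was the widest of the list, at 1181 bp on chromosome 5 from 3341898 to 3343078, and no other gene shared it. The summit lay 1736 bases upstream of the deposited start. The reference model of Cdk6 begins 3308 bases before the deposited start, so that by this model the interval lay inside the gene, with its edge 894 bases from the start. Cdk7, which forms the CDK-activating kinase and is a subunit of the transcription factor TFIIH, was the reverse of the others, with 4 in run 1 and 0 in run 2. Its summit lay 31822 bases into the gene, on chromosome 13 at 100698931 to 100699588, and 2096 bases before its 3′ end, and the interval was also assigned to Ccdc125, downstream of that gene. Of protein-coding genes with run 1 intervals, 29.6% had one within 2.5 kb of the start, against 68.3% of those with run 2 intervals. Cdk1 and Cdk2, the kinases of mitosis and S phase, were unbound.

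**Figure D2:**
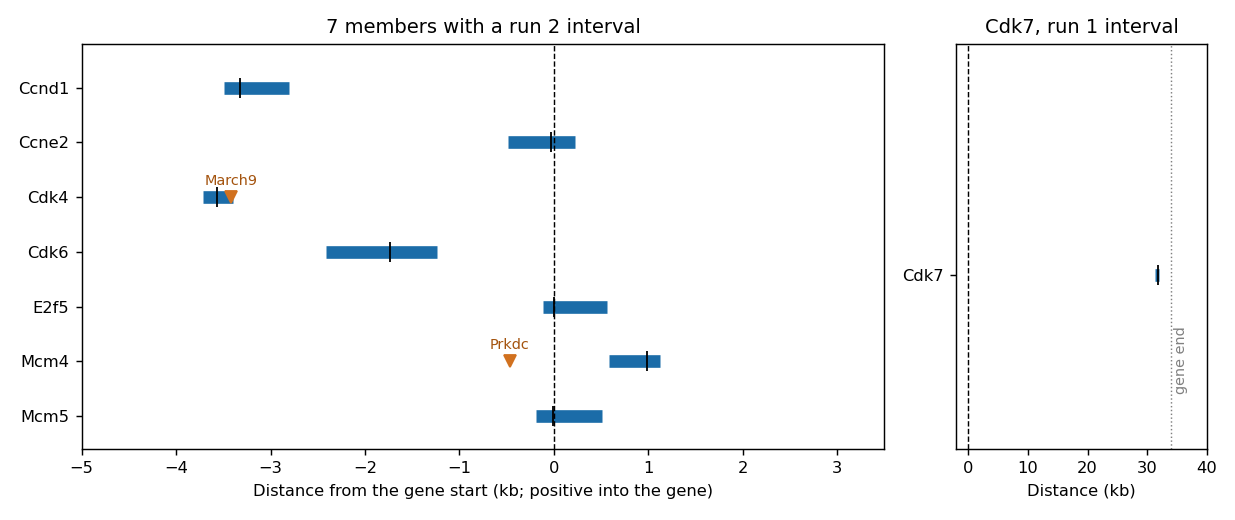
Intervals of the 8 bound genes (blue bars; black ticks are summits) by distance from the deposited gene start in kb (x axis, positive into the gene), with starts of other assigned genes inside the plotted range as orange triangles. Intervals at Ccne2, E2f5 and Mcm5 cover the gene's own start, that of Cdk4 lies at the start of March9, and that of Cdk7 lies near the 3′ end of the gene (dotted line).

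Of the 8 E2F factors, E2f5 was bound. E2f5, which pairs mainly with the pocket proteins Rbl1 and Rbl2 as a repressor, had 0 in run 1 and 3 in run 2. The summit lay 1 base from the start, on chromosome 3 at 14578555 to 14579229. The activators E2f1, E2f2 and E2f3, the repressors E2f4 and E2f6, and the atypical repressors E2f7 and E2f8 had no interval. The 3 pocket proteins Rb1, Rbl1 and Rbl2 had none either, and neither had the Cdc25 phosphatases Cdc25a, Cdc25b and Cdc25c, which activate CDKs.

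Among licensing factors, 2 of 9 genes were bound, and both are Mcm subunits. Mcm4 had 0 in run 1 and 4 in run 2. Its interval lay inside the gene on chromosome 16 at 15636281 to 15636813, 587 bases from the start at the nearest edge. The same interval was assigned to Prkdc, the catalytic subunit of DNA-dependent protein kinase, with the summit 1450 bases upstream of that gene and 984 bases inside Mcm4. Mcm5 had 2 in run 1 and 3 in run 2, the only bound member above 0 in both runs. Its interval, on chromosome 8 at 75109336 to 75110042, covered the start with the summit 8 bases upstream. Among 3083 protein-coding genes with run 2 intervals only, 52.7% had a run 1 height of 0, and 17.8% had 2 or more. Mcm2, Mcm3, Mcm6 and Mcm7 of the helicase and Cdc6, Cdt1 and Orc1, which load it, were unbound.

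No gene of the remaining roles was bound. These were the proliferation markers Pcna, the sliding clamp of DNA polymerase, Mki67 and Top2a, the mitotic kinases Plk1, Aurka and Aurkb, the spindle checkpoint genes Bub1, Bub1b and Mad2l1, the anaphase activator Cdc20, and the checkpoint kinases Wee1 and Chek1. The groups without a bound gene hold 2 to 7 genes each, and the roles were not tested against each other. For the 41 unbound members no merged region lay within 10 kb of the reference gene model either, whereas 168 other protein-coding genes missing from the table had one by these models. The lack of a called interval does not show that Ring1b was absent.

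Heights at the bound genes were low. They were 3 to 5 with a median of 4, and the median over 3461 bound protein-coding genes was also 4. Of the 8 genes, 5 stood at 4, 2 at 3 and 1 at 5. A height of 5 or more was reached by Cdk4 alone, 2.04% of the list, against 7.9% of all protein-coding genes. As shares of bound genes, these were 12.5% of the list and 49.9% of protein-coding genes. No member reached 6, as 4.25% of all protein-coding genes did, and bound protein-coding genes ranged up to 66, with 4.57% at 10 or more. Interval widths of 323 to 1181 bp had a median of 683.5 bp, against 663 bp for the highest interval of each bound protein-coding gene.

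**Figure D3:**
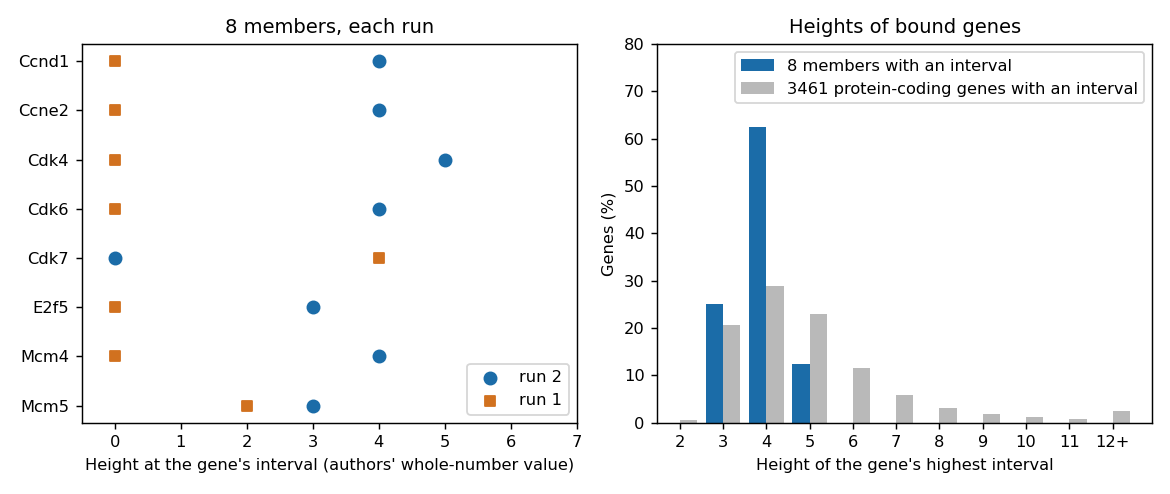
Left, peak height at the interval of each bound gene in run 2 (blue circles) and run 1 (orange squares); right, percent of bound genes (y axis) by height of the highest interval (x axis), for the 8 members (blue) and 3461 protein-coding genes (grey). Heights of the 8 genes lie between 3 and 5, and run 1 is above 0 at Cdk7 and Mcm5 only.

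By position, 5 of the 8 bound genes (62.5%) had an interval no more than 2.5 kb from their start, measured from the interval's nearest edge, against 65.7% of bound protein-coding genes. Counted over the whole list these were 10.2%, against 10.4% of all protein-coding genes. The 5 genes were Ccne2, Cdk6, E2f5, Mcm4 and Mcm5. With 1 kb, all but Cdk6 remained, 8.16% of the list against 9.72% of all protein-coding genes. For 6 of the 8 genes (75%) the member's own start was the nearest to the summit among the starts of the genes assigned that interval, against 73.9% of bound protein-coding genes. Over the whole list these were 12.2%, against 11.7% of all protein-coding genes. The exceptions were Cdk4 and Cdk7. Another gene shared the interval at 6 of the 8, all but Ccnd1 and Cdk6, while 51.7% of bound protein-coding genes had only shared intervals. In share and in distance to the start, the list thus stood near the background. Shared intervals were more frequent among the 8 than in the background, and this was not tested.

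The 41 unbound genes were also placed by their distance to the nearest merged region, from either end of the reference gene model. The distances ran from 11879 to 1403120 bp with a median of 162792 bp, against a median of 221085 bp for unbound protein-coding genes. Within 100 kb of a region lay 17 of the 41 (41.5%), against 29.5% of unbound protein-coding genes. Beyond 400 kb lay 9 of the 41 (22%), against 33.8% of unbound protein-coding genes, and the 9 included Plk1, Cdk1, Cdc20, Bub1b and Chek1. No bound member lay near the 10 kb limit of the table. The farthest intervals outside their genes were those of Ccnd1 and Cdk4, 2803 and 3396 bases from the starts, and the closest unbound member was Cdc6, at 11879 bp.

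Of the called intervals nearest to each of these 41 genes, 36 were assigned to some other gene. That closest to Cdc6, of height 4, lay 1536 bases upstream of Rara, a retinoic acid receptor gene. The one closest to Top2a, 54962 bp away with a height of 7, lay 256 bases upstream of Rara as well. E2f2 lay 28448 bp from a run 1 interval of height 5 upstream of Id3, which encodes an inhibitor of bHLH factors. Cdc25a lay 37431 bp from an interval of height 10 at the start of Map4, a microtubule-associated protein gene. Ccnb1, the mitotic cyclin, lay 46322 bp from one of height 6 in Slc30a5, and Rb1 lay 49176 bp from one of height 4 in Rcbtb2.

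**Figure D4:**
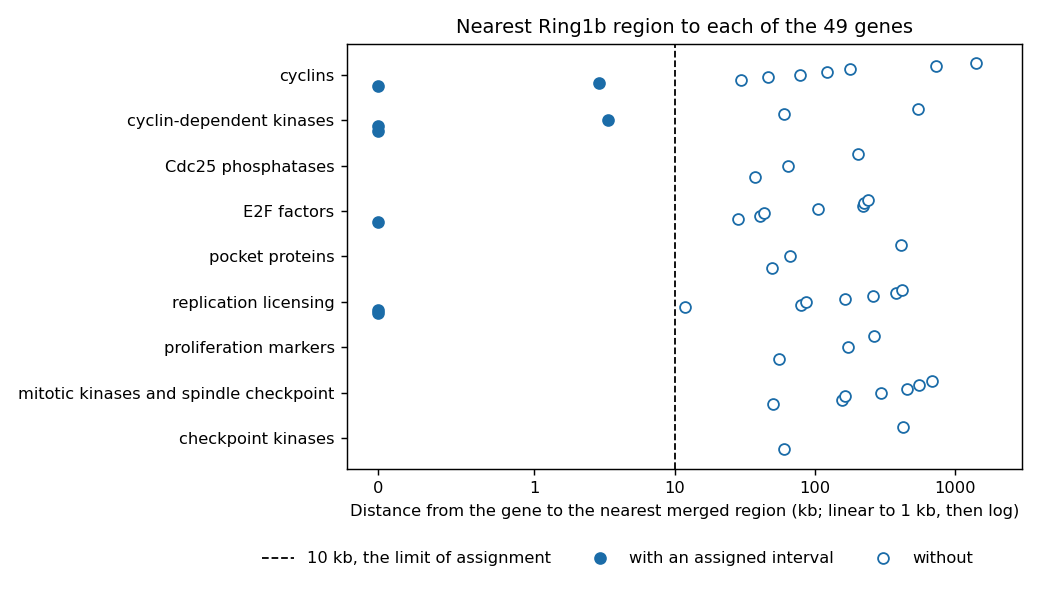
Distance in kb (x axis, linear to 1 kb and logarithmic beyond) from each of the 49 genes to the nearest merged Ring1b region, by role, for genes with (filled) and without (open) an assigned interval; the dashed line marks 10 kb. All filled points lie left of the line, and the open point closest to it is Cdc6, at 11879 bp.

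A wider list of 141 other cell cycle genes, written by role, was read in the same way. Intervals were assigned to 32 (22.7%), against 15.8% of all protein-coding genes, and 24 (17.0%) had one no more than 2.5 kb from the start, against 10.4%. All 32 came from run 2. The difference between the lists was not tested. The CDK inhibitors, which oppose the kinases above, held 5 of these genes out of 7, and in 4 of the 5 an interval lay that close to the start. The exception was Cdkn1b, all 3 of whose intervals lay 5811 bases or more from the start.

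Other cyclins had intervals at 5 of 18 genes, all with one in that window. Ccng2, a cyclin of quiescent cells, reached 6, and Ccno, needed for centriole amplification in multiciliated cells, reached 5, while Ccnf and Ccny reached 4. Other CDKs were bound at 4 of 15 genes, with Cdk13 and Cdk16 at 5 at their starts. Among E2F partners and subunits of the DREAM and MuvB complexes, which repress or activate E2F target genes, 3 of 9 were bound, all at their starts. These were Mybl2 and Rbbp4 at 5 and Tfdp2 at 4. Rbbp4 is also a histone chaperone subunit.

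Ubiquitin ligase genes of the cycle were bound at 6 of 24. Anapc11, the RING subunit of the anaphase-promoting complex, reached 8, Cul1, the scaffold of SCF ligases, reached 5, Anapc1 reached 4, and the other 3 stood at 3. The Anapc11 interval was also assigned to Alyref, whose start was 14 bases from the summit. Anapc15, among those at 3, had its interval downstream of the gene. That summit lay 9441 bases from the start of Anapc15 and 19 bases from that of Lamtor1. DNA damage and mitotic entry genes were bound at 4 of 13, with the checkpoint clamp loader gene Rad17 at 7, Rad9a at 4, and Mdm2 and Pkmyt1 at 3. The Rad17 summit lay 49 bases inside Taf9, which shares that interval. The Rad9a interval lay downstream of Rad9a, with its summit 9187 bases from the start, and covered the start of Ppp1ca. Origin recognition and replisome genes were bound at 2 of 27, Dbf4 at 3 and Pola1 at 6. Spindle, kinetochore and cytokinesis genes were bound at 3 of 28, Bub3 at 9 and Nuf2 and Birc5 at 4.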

How the data were processed

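The tools BWA and SICER and the build mm10 are named in the submitters' processing notes; versions and settings are not given in the sources used here. Per the file headers, the authors deposited intervals and summits called separately in 2 sets named as replicates (called runs here), merged regions, and a gene table with peak heights (signal values) and counts of intervals per gene. The deposited summit score is the same height. A list of track addresses was not used.

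Members were matched by symbol and by gene identifier, which gave the same genes. Distances were computed with Python 3.11.15, numpy 2.4.6 and pandas 2.3.3, figures with matplotlib 3.10.9. All 5933 computed gene-to-summit distances equalled the deposited ones, and the distance code was tested on simulated data. The background was the 21883 protein-coding genes on assembled chromosomes of the GRCm38.p6 reference table. Absence of a member from the gene table was checked against the merged regions. Of 142 wider names, 141 were found. Every bound member is described, and up to 4 bound genes of each wider role are named. The members and lists were chosen with earlier results of these data known. Alternatives changed windows, heights, runs, shared intervals and gene models.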

Additional observations from a re-analysis of the deposited data

How the results depend on the processing

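Of 24 alternatives, 15 kept the value equal or within 1.5 times. The 8 bound members became 5 with intervals within 2.5 kb of the start, 4 within 1 kb, 1 at heights of 5 or more, 0 at 6 or more and 1 with run 1 alone. The 5 members with an interval near the start became 0 at heights of 5 or more. The 32 other cell cycle genes became 16 at heights of 5 or more, 10 at 6 or more and 0 with run 1 alone. As shares of that list these were 11.3%, 7.09% and 0%, against 7.9%, 4.25% and 1.73% of all protein-coding genes. Stricter rules remove intervals by construction, and the shares of all protein-coding genes shrink with them. The median height was 4 with intervals near the start and with run 2 alone. Taking the interval nearest to the start could not change it, since each bound member has 1 interval, so that alternative says nothing of stability. Run 2 alone likewise could not change the 32 other genes or the 5 members near the start, which had intervals of run 2 only. Starts from the reference gene models, and counting other cell cycle genes by the nearest start, were added with the results in view. No paired analysis was possible because each group holds a single sample. Heights are whole numbers, so neighbouring values differ by 1 step of unknown depth, and no input values were used.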

Other observations

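Of the 32 bound genes of the wider cell cycle list, 23 had an interval whose nearest assigned start was their own, and 9 did not. The 23 were 71.9% of these bound genes, near the 73.9% of bound protein-coding genes. The highest value of that list, 41 at Cdk8, a kinase of the Mediator complex, came from an interval 29477 bases into the gene whose summit lay 149 bases from the start of the microRNA gene Mir5105. Run 1 had a height of 3 at Cdk8. Bub3, a spindle checkpoint gene, had 5 intervals, all upstream, and all 5 were also assigned to Hmx2, a homeobox gene. The highest of them, at 9, lay 2370 bases from the start of Hmx2 and 3959 bases from that of Bub3. The interval of Birc5, the survivin gene, lay 1200 bases from the start of Tmem235 and 12715 bases from that of Birc5.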
